A study of Astyanax mexicanus with 12 samples.

Results

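The morph by age interaction measures, for each gene, how far the liver of Tinaja cavefish and the liver of surface fish differed in their change from 5 to 7 days post-fertilization (dpf). It was the Tinaja log2 fold change between these ages minus the surface fish log2 fold change, estimated from all 12 libraries of the series and for 17540 of 27420 gene identifiers that passed a filter on low counts. The Mexican tetra, Astyanax mexicanus, has river-dwelling surface fish and blind cave populations, of which Tinaja is one. The groups were surface fish at 5 dpf, surface fish at 7 dpf, Tinaja at 5 dpf and Tinaja at 7 dpf, with 3 libraries each, and every library pooled the dissected livers of 40 larvae. The design text calls the younger larvae fed and the older larvae fasting, and the 7 dpf larvae had been fasted up to collection. Clutches of several parent tanks were combined in the study. Age and feeding state changed together in both morphs and cannot be told apart, and a pool cannot separate fewer cells of a type from less RNA per cell.

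During a fast the vertebrate liver turns from storing nutrients to burning fatty acids, making ketone bodies and releasing glucose, and it lowers the synthesis of lipid and protein. Larvae around these ages are also leaving their yolk behind. The morphs are not alike in this. The study cites earlier work in which cavefish eggs held more yolk and visible yolk was lost later than in surface fish. The younger larvae of the morphs may therefore have differed in yolk stage. Yolk stage was not recorded for the libraries, and its part in the interaction was not tested. Cave populations live with scarce food, and the comparison asks which liver transcripts pass through these ages differently in cavefish and in surface fish. No gene names could be matched to the identifiers, so the genes are described by identifier, response and abundance, without a role.

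The reads counted to genes ran from 10.6 to 23.6 M per library. They were 10.6 to 13.9 M in surface fish at 5 dpf, Tinaja 5 dpf replicate 3 and Tinaja 7 dpf replicates 2 and 3. The others held 18.5 to 23.6 M. The shallower libraries had factors of the trimmed mean of M values (TMM) scaling of 1.07 to 1.55 and 6.86% to 9.63% unaligned reads. The deeper ones had 0.683 to 0.931 and 3.9% to 4.8%. Replicate 1 of Tinaja at 7 dpf stood apart from its group, as a deeper library. Its TMM factor, 0.683, was the lowest of the 12, beside 0.721 in surface 7 dpf replicate 3. The median standard deviation of a gene's log2 level within Tinaja at 7 dpf was 0.45 over all 3 libraries and 0.24 over the 2 others. Other groups had a similar drop, from 0.37 to 0.22 in Tinaja at 5 dpf without replicate 3 and from 0.35 to 0.2 in surface fish at 5 dpf without replicate 1. The morph on the label of Tinaja 7 dpf replicate 1 was checked with transcripts found in only 1 morph, which were chosen without that library as at least 1 CPM (the unit of counts scaled to a fixed library size) in all others of a morph and under 0.2 CPM in every library of the other morph. It held 21 of 27 Tinaja transcripts at 1 CPM or more and 0 of 16 surface transcripts, the highest of the latter at 0.684 CPM. In the same check the other Tinaja libraries held 21 of 21 to 21 of 24, with surface transcripts up to 0.288 CPM. In surface libraries the highest Tinaja transcript reached 3.63 CPM. Since Tinaja 7 dpf replicate 1 stood apart from its group, all interaction results are given for the 12 libraries and for the 11 without it.

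With 12 libraries the difference in age response passed for 8 of 17540 genes (0.0456%) at an adjusted p under 0.1 in the quasi-likelihood test of edgeR, and at an unadjusted p under 0.05 it stood at 2769 genes (15.8%). The 8 genes fell into 4 kinds of response, where a log2 fold change within 0.5 of 0 was read as flat. In 3 genes Tinaja rose while the surface fish dropped, and in 3 the surface fish moved and Tinaja stayed flat. In 1 both fell but Tinaja less, and in 1 both rose and Tinaja more. Over all genes tested, rises and falls together, opposite responses made up 7.46% and responses flat in Tinaja alone 28.7%. Responses smaller in Tinaja made up 14.3% and larger ones 6.98%. The 8 were chosen on the interaction, so their kinds are no test. For 6 of the 8 (0.0342% of the genes tested) the interaction was positive, that is, the change in Tinaja was the higher of the pair, and for 2 (0.0114%) it was negative. In the same model the age effect passed for 28.4% of genes in surface fish and 6.97% in Tinaja, and the difference between the morphs for 16% at 5 dpf and 18.3% at 7 dpf.

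ENSAMXG00000018625 went in opposite directions in the morphs. In surface fish it stood at 107, 65.7 and 66.4 CPM at 5 dpf and at 5.66, 11.3 and 10.8 CPM at 7 dpf. In Tinaja it stood at 24.1, 21.0 and 19.5 CPM at 5 dpf and at 85.7, 27 and 49.2 CPM at 7 dpf. Neither pair of ages overlapped, and the morph with the higher level changed from surface fish at 5 dpf to Tinaja at 7 dpf. The log2 fold change was -3.11 (standard error, SE, 0.42) in surface fish and 1.33 (SE 0.39, edgeR adjusted p = 0.0889) in Tinaja. The interaction was 4.44 (SE 0.57, edgeR adjusted p = 0.0287). Without Tinaja 7 dpf replicate 1, its highest library at that age, the interaction was 3.92 (SE 0.47, edgeR adjusted p = 0.0212). The Tinaja log2 fold change was then 0.80.

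ENSAMXG00000036645 was also reversed, at a lower level. Its surface libraries held 41.6, 29.5 and 20.8 CPM at 5 dpf and 6.97, 6.67 and 5.76 CPM at 7 dpf. Its Tinaja libraries held 9.83, 3.92 and 11.9 CPM at 5 dpf and 30.1, 20.6 and 45.5 CPM at 7 dpf. The ages did not overlap in either morph. The log2 fold change was -2.24 (SE 0.42) in surface fish and 1.91 (SE 0.41) in Tinaja, which gave an interaction of 4.15 (SE 0.58, edgeR adjusted p = 0.0422), and with 11 libraries of 4.18 (SE 0.62, edgeR adjusted p = 0.0428).

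The third reversed gene was scarce. It stood at 4.47, 2.08 and 3.73 CPM in surface fish at 5 dpf and at 0.328, 0.198 and 0.449 CPM at 7 dpf, while Tinaja went from 0.466, 0.0577 and 0.719 CPM to 2.87, 1.69 and 2.22 CPM. The surface fish at 5 dpf and Tinaja at 7 dpf were the high groups. Its interaction of 5.80 (SE 0.92, edgeR adjusted p = 0.0854) was the largest in size of the 8, and with 11 libraries it was 5.58 (SE 0.97, edgeR adjusted p = 0.0522).

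ENSAMXG00000003085 fell in surface fish between the ages and stayed within the flat range in Tinaja. The surface fish held 127, 128 and 108 CPM at 5 dpf, a mean of 121 ± 11.2 CPM (SD, n = 3), and 5.06, 5.88 and 9.27 CPM at 7 dpf, a mean of 6.74 ± 2.24 CPM. Tinaja held 123, 174 and 206 CPM at 5 dpf and 87.9, 162 and 150 CPM at 7 dpf, so the ages overlapped. The morphs overlapped at 5 dpf and were far apart at 7 dpf. The log2 fold change was -4.17 (SE 0.35) in surface fish and -0.33 (SE 0.31, edgeR adjusted p = 0.607) in Tinaja. The interaction was 3.84 (SE 0.45, edgeR adjusted p = 0.0287), and with 11 libraries 4.06 (SE 0.41, edgeR adjusted p = 0.0133).

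A further gene fell in both morphs and fell less in Tinaja. It went from 15.6, 12.9 and 11.4 CPM to 0.421, 0.198 and 0.224 CPM in surface fish and from 7.66, 6.17 and 7.84 CPM to 2.12, 1.42 and 1.91 CPM in Tinaja. The 7 dpf levels rest on few reads, 9, 3 and 3 in surface fish and 31, 21 and 25 in Tinaja. The surface fish held more at 5 dpf and less at 7 dpf, with no overlap of the morphs at either age. The log2 fold changes of -5.47 and -1.99 gave an interaction of 3.48 (SE 0.44, edgeR adjusted p = 0.0287), and 3.34 (SE 0.45, edgeR adjusted p = 0.0376) was left with 11 libraries.

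Only 1 of the 8 genes changed more in Tinaja than in surface fish in the same direction. It rose from 46.0, 61.0 and 61.8 CPM to 109, 210 and 203 CPM in surface fish and from 7.24, 5.42 and 6.11 CPM to 147, 115 and 149 CPM in Tinaja. Tinaja started far below the surface fish and the morphs overlapped at 7 dpf. The log2 difference between Tinaja and surface fish was -3.17 at 5 dpf and -0.34 at 7 dpf, and the interaction was 2.83 (SE 0.39, edgeR adjusted p = 0.0422), against 2.77 (SE 0.41, edgeR adjusted p = 0.0428) with 11 libraries.

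The 2 genes with a negative interaction rose in surface fish and stayed flat in Tinaja. ENSAMXG00000025171 stood at 4.34, 8.77 and 9.59 CPM in surface fish at 5 dpf and at 53.1, 44.7 and 46.2 CPM at 7 dpf. In Tinaja it stood at 28.0, 28.5 and 20.4 CPM at 5 dpf and at 27.9, 32.1 and 29.7 CPM at 7 dpf. Every Tinaja library lay between the surface fish of the 2 ages. The log2 fold change was 2.67 (SE 0.28) in surface fish and 0.22 (SE 0.26) in Tinaja, with an interaction of -2.44 (SE 0.38, edgeR adjusted p = 0.0792). With 11 libraries it was -2.40 (SE 0.41, edgeR adjusted p = 0.0516).

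ENSAMXG00000004256 also had its Tinaja libraries between the surface fish of both ages. The surface fish rose from 6.24, 9.42 and 9.08 CPM to 30.6, 25.6 and 28.3 CPM, and Tinaja went from 18, 20.2 and 13.4 CPM to 16.1, 12.9 and 13.3 CPM. Tinaja was the higher morph at 5 dpf and the lower at 7 dpf. The log2 fold change was 1.77 (SE 0.23) in surface fish and -0.29 (SE 0.22) in Tinaja, with an interaction of -2.06 (SE 0.32, edgeR adjusted p = 0.0792). With 11 libraries it was -2.17 (SE 0.33, edgeR adjusted p = 0.0428).

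**Figure D1:**
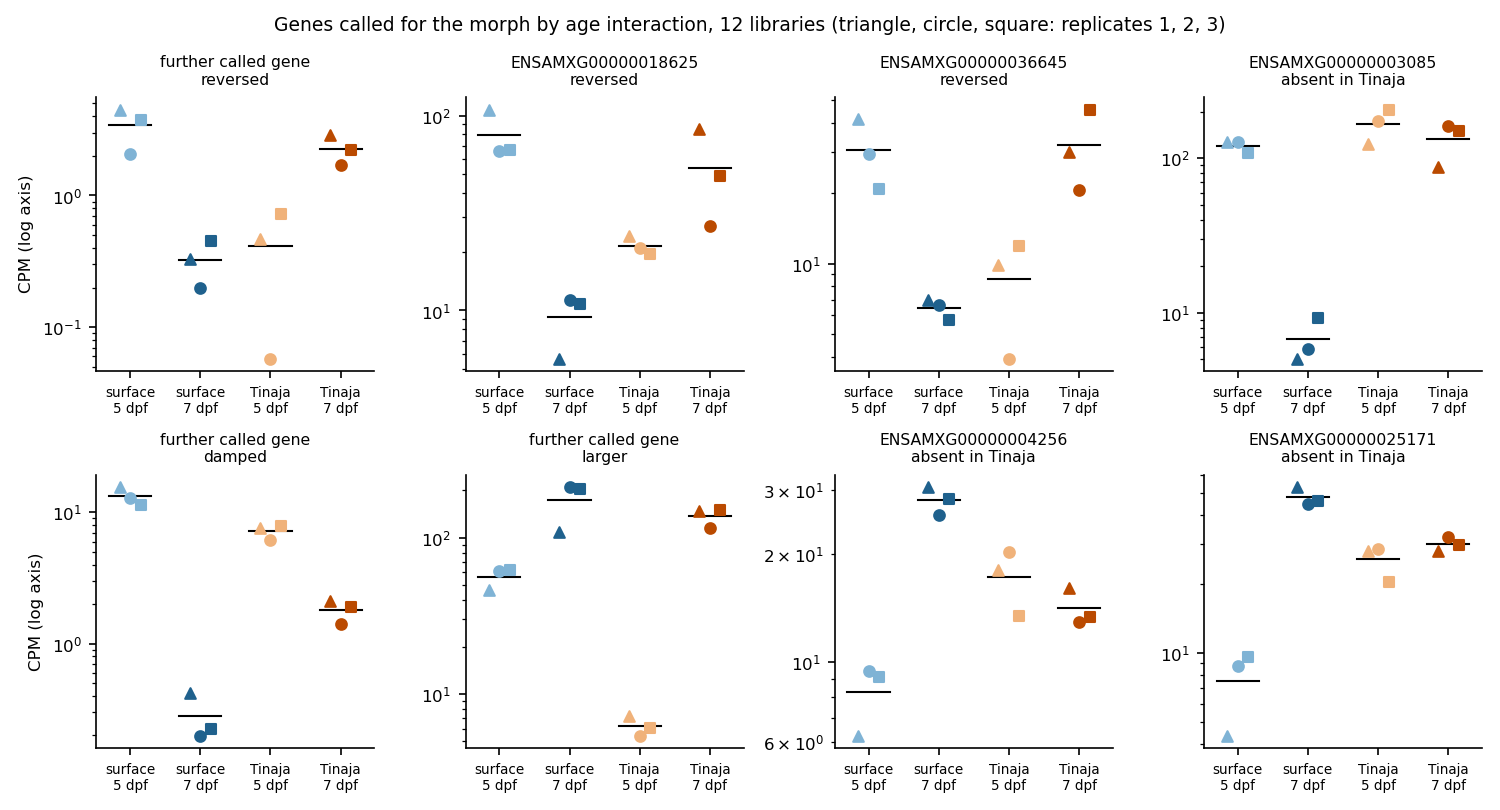
CPM (log axis) of the 8 genes called for the morph by age interaction with 12 libraries, by group, with 1 point per library and the shape giving the replicate number. In ENSAMXG00000003085 the surface fish dropped from a mean of 121 to 6.74 CPM while Tinaja stayed between 87.9 and 206 CPM.

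The call of these 8 genes held to an unequal degree. The direction was kept in all 22 alternatives run for each gene. These reuse the same counts on genes chosen for a large interaction, so a change of direction was unlikely from the start. ENSAMXG00000018625 and ENSAMXG00000003085 passed the threshold in 21 of 22 alternatives each, with every single library left out in turn among them, and the damped gene in 20. The gene that rose more in Tinaja passed in 17, ENSAMXG00000036645 in 15, the scarce gene and ENSAMXG00000025171 in 10 each, and ENSAMXG00000004256 in 9. With each of the 12 libraries left out in turn, the edgeR adjusted p reached at most 0.099 in the 3 genes that always passed. It reached 0.134 in the gene that rose more in Tinaja, whose call needed replicates 2 and 3 of surface fish and replicate 1 of Tinaja, all at 5 dpf. It reached 0.176 in ENSAMXG00000036645, whose call needed replicates 1 and 2 of surface fish at both ages and replicate 1 of Tinaja at 5 dpf. The scarce gene was lost in 9 of the 12 fits (up to 0.251), ENSAMXG00000025171 in 9 (up to 0.193) and ENSAMXG00000004256 in 10 (up to 0.205), and all of them passed without Tinaja 5 dpf replicate 3 or Tinaja 7 dpf replicate 1. The alternative that ended the call of all 8 took a covariate into the model. It was the share of reads that aligned but were counted to no gene feature, here called reads outside genes. Such reads may include reads in introns. Their edgeR adjusted p then lay between 0.524 and 0.635. All 8 remained under an unadjusted edgeR p of 0.05, where 4.98% of all genes stood, and kept their kind of response. Since the 8 were chosen on the same counts, this gives no separate support. The median interaction of the 6 positive genes was 3.99 without that covariate and 3.25 with it.

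Without Tinaja 7 dpf replicate 1 the interaction passed for 1484 of 17873 genes (8.3%), of which 726 were positive (4.06%) and 758 negative (4.24%). At an unadjusted p under 0.05 it stood at 4554 genes (25.5%). Here the age effect passed for 33% of genes in surface fish and 2.06% in Tinaja, which had 2 libraries left at 7 dpf, and the difference between the morphs for 19.8% at 5 dpf and 29.5% at 7 dpf. All 8 genes above were among the 1484. Scaling by library totals, which moved the median of all genes to 0.79, gave 3979 genes, of which 3810 were positive and 169 negative. The 1484 stood close to the threshold, since at an adjusted p under 0.05 the calls were 23 (0.129%) with 11 libraries and 5 (0.0285%) with 12. It also turned on which library was missing. Tinaja 7 dpf replicate 1 was deeper and Tinaja 5 dpf replicate 3 shallower than the rest of its group. Otherwise surface fish went from shallower to deeper libraries with age, and Tinaja from deeper to shallower ones. Leaving out either therefore brought the interaction closer to this library difference. The interaction and that difference cannot be fully told apart, and what lay behind the difference was not tested. With 12 libraries, leaving out Tinaja 5 dpf replicate 3 gave 555 genes (3.01%), of which 420 were also among the 1484 (75.7% of the 555 and 28.3% of the 1484), and leaving out any other single library gave 4 to 13. Leaving out a second library from the 11 gave 4 and 10 genes when replicate 2 or 3 of Tinaja at 7 dpf was missing, and 4349 when replicate 3 of Tinaja at 5 dpf was. When reads outside genes entered the model as a covariate, 0 genes passed in either set of libraries, and 874 (4.98%) and 1029 (5.76%) stood under an unadjusted p of 0.05 with 12 and 11 libraries in edgeR.

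**Figure D2:**
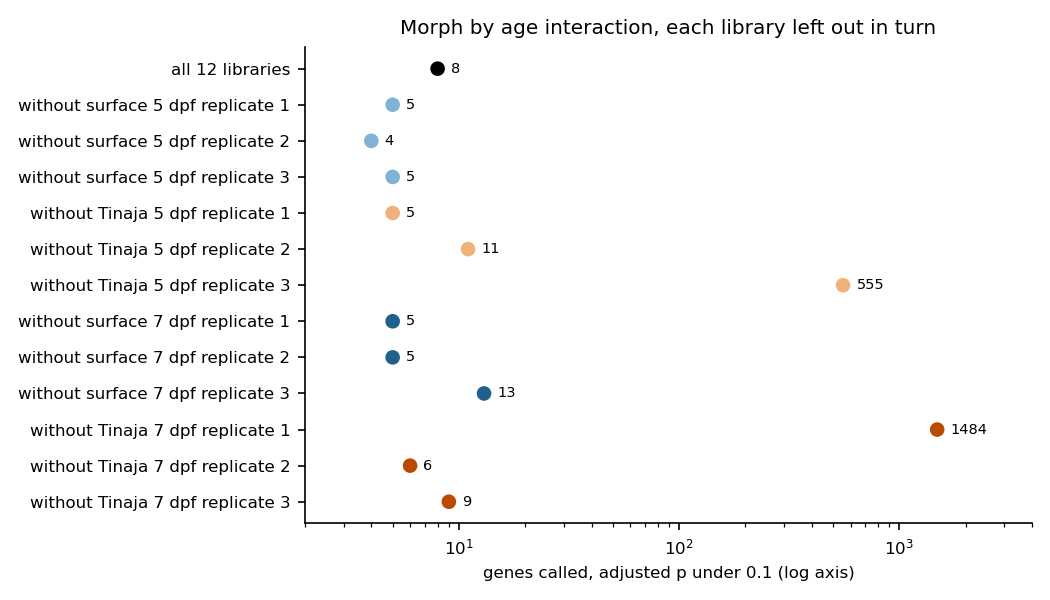
Number of genes called for the interaction (edgeR adjusted p under 0.1, log axis) with all 12 libraries and with each library left out in turn. The count was 8 with all libraries, 1484 once Tinaja 7 dpf replicate 1 was left out and 555 once replicate 3 of Tinaja at 5 dpf was.

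Among the 1484 genes a response absent in Tinaja was the most frequent kind. It described 768 genes (51.8%), of which 453 rose and 315 fell in surface fish, while over all genes tested with 11 libraries it described 29.3%. A reversed response described 521 genes (35.1%, against 11.1% of all genes), of which 345 dropped in surface fish while rising in Tinaja. At a flat range of 0.25 this order turned, with 850 genes reversed and 404 absent in Tinaja. A damped response described 123 genes (8.29%, against 11% of all genes), a larger response 3 genes against 6.39% of all genes, and a response in Tinaja alone 67 genes (4.51%, against 16.4%). These shares describe genes chosen on the interaction itself, and since the selection favours large differences they are no test of the response kinds. Of the 726 positive genes 637 also passed for age in surface fish and 23 for age in Tinaja. Among the 758 negative genes 661 and 37 passed. Over all genes tested with 11 libraries these age effects passed for 33% and 2.06%. Each age effect is a term of the interaction and shares its libraries, so the counts follow in part from the choice of genes.

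The medians of each kind follow in part from how the kinds are defined. Where the response was absent in Tinaja, the median log2 fold change was 1.25 in surface fish and -0.15 in Tinaja for the genes that rose, and -1.58 and 0.21 for those that fell. In reversed genes the medians were -1.43 and 0.98 for those that fell in surface fish and 0.94 and -0.75 for those that rose. The damped genes, which had to move in Tinaja and still differ enough to be called, had medians of 2.59 in surface fish and 0.80 in Tinaja for those that rose and -3.55 and -0.94 for those that fell. With DESeq2 on the 12 libraries, which called 835 genes (4.76%, 670 of them among the 1484), the order was the same, with 409 absent in Tinaja, 271 reversed, 94 damped and 7 larger. Without Tinaja 5 dpf replicate 3 it was not, with 320 of 555 genes reversed and 157 absent in Tinaja. Shares over all genes tested were not computed for either of these fits. All 3 fits shared 369 genes, where 17540 were tested with all 12 libraries. The fits reuse most libraries and all choose on the interaction, so this overlap follows in part from how they were made. By the age effects of the 12-library edgeR fit, 207 of the 369 were absent in Tinaja, 115 reversed and 27 damped. Another 18 moved in Tinaja alone and 2 were larger. Over all genes tested in that fit the shares were, in this order, 28.7%, 7.46%, 14.3%, 13.3% and 6.98%.

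**Figure D3:**
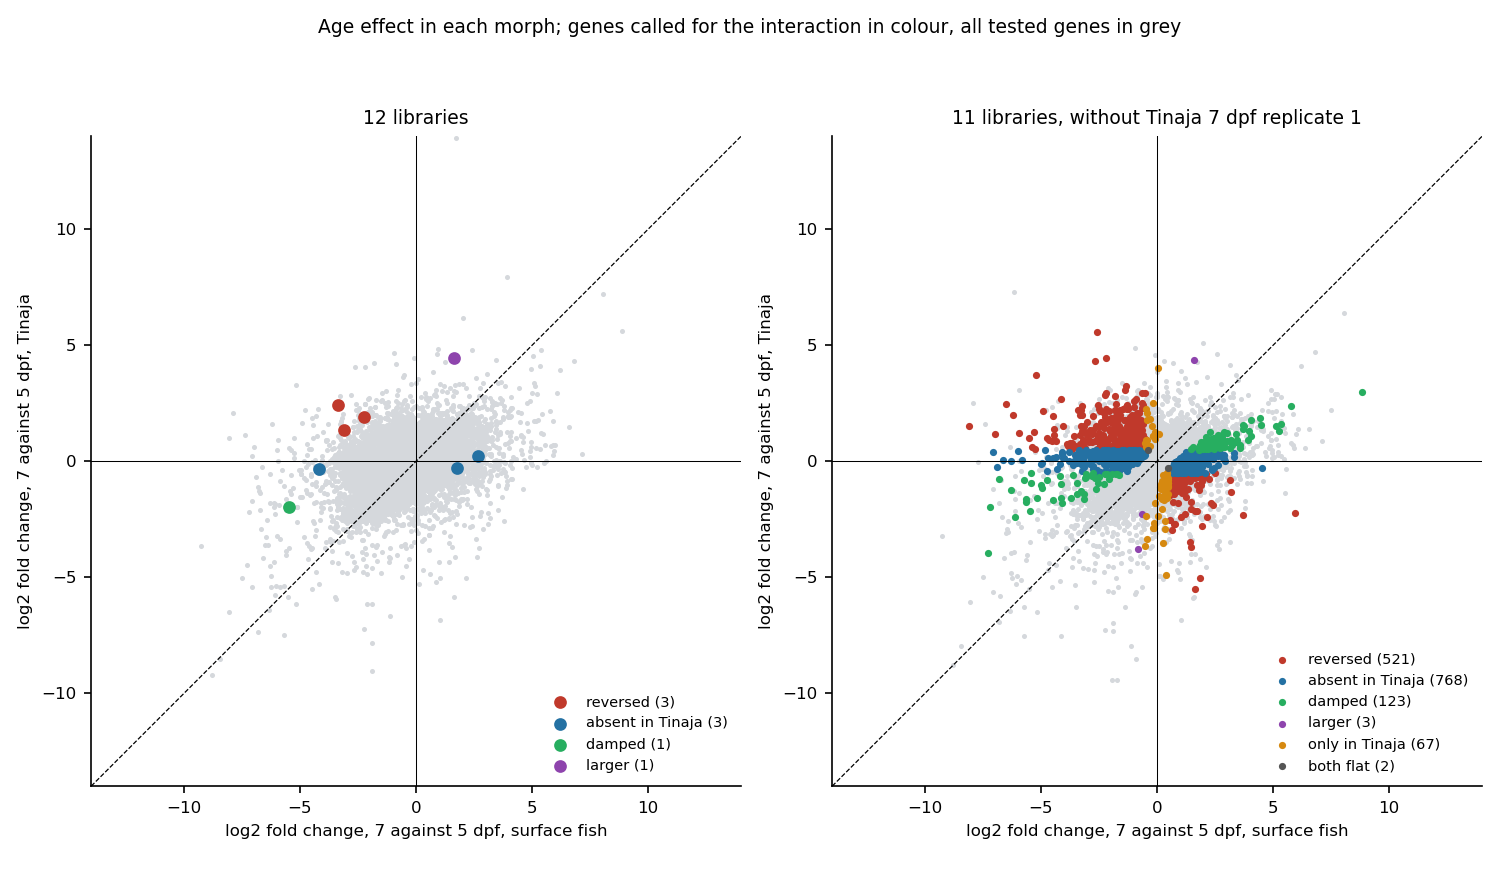
Log2 fold change from 5 to 7 dpf in Tinaja against that in surface fish for every gene tested (grey), with genes called for the interaction coloured by response, for 12 libraries on the left and 11 on the right; the dashed line marks equal change. Of the 1484 coloured genes on the right 768 lie along the line of no change in Tinaja and 521 in the quadrants of opposite change.

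The same difference can be read as the gap between the morphs at each age. Of the 1484 genes, 564 (38%) had morphs within 0.5 on the log2 scale at 5 dpf and apart at 7 dpf, 547 (36.9%) changed which morph was higher, and 230 (15.5%) were apart at 5 dpf and together at 7 dpf. Over all genes tested these shares were 28.9%, 8.09% and 15.4%. Of the 453 genes that rose in surface fish and stayed flat in Tinaja, 203 (44.8%) started together and opened, 92 (20.3%) started apart with the gap closing by 7 dpf, and 136 (30%) crossed. For the 315 that fell in surface fish alone the numbers were 136 (43.2%), 40 (12.7%) and 103 (32.7%). Over all tested genes that moved in surface fish and were flat in Tinaja the shares were 41.6%, 19.7% and 9.36% for those that rose in surface fish and 37.7%, 18% and 12.2% for those that fell. The called genes were thus near the background for opening, and near or below it for closing. Crossing, where the level in Tinaja lay between the surface levels of both ages, was more frequent among genes chosen on the interaction. Since the interaction is the change of the gap between the ages, that choice itself favours crossing, and the shares are no test of it. With 12 libraries, 6 of the 8 genes crossed, 1 opened and 1 closed, against 5.38%, 22% and 17.7% of all genes tested.

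ENSAMXG00000029078 was among the genes with the smallest p without Tinaja 7 dpf replicate 1. It rose in surface fish from 14.5, 18.8 and 18.1 CPM to 100, 113 and 134 CPM, and in Tinaja it went from 14.9, 14.7 and 16.8 CPM to 19.3 and 21.5 CPM in replicates 2 and 3. Replicate 1 held 70.7 CPM, between these and the surface fish of its age. The interaction was -2.36 (SE 0.28, edgeR adjusted p = 0.0212) without that library and -1.49 (edgeR adjusted p = 0.264) with it.

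ENSAMXG00000035632 had the same pattern, with 22.8, 18.8 and 20.2 CPM in surface fish at 5 dpf and 109, 109 and 105 CPM at 7 dpf. Tinaja held 27.7, 37.4 and 20.9 CPM at 5 dpf and 58.7, 25.0 and 21.7 CPM at 7 dpf. The first of the latter, replicate 1, was again the library nearest to the surface fish. The interaction was -2.69 (SE 0.32, edgeR adjusted p = 0.0212) without it and -2.09 (edgeR adjusted p = 0.148) with it.

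ENSAMXG00000036294 fell in surface fish, from 21.2, 22.3 and 16.0 CPM to 5.48, 5.88 and 6.43 CPM. Tinaja held 29.7, 31.8 and 30.1 CPM at 5 dpf and 6.29, 32.7 and 30 CPM at 7 dpf. Replicate 1 of Tinaja at 7 dpf thus stood within the surface range of its age and the others at the level of 5 dpf. The interaction was 1.77 (SE 0.26, edgeR adjusted p = 0.0428) without it and 1.33 (edgeR adjusted p = 0.318) with it.

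The level of the left-out library was also read over whole classes, which had been chosen without it and with all the others. Levels were taken relative to the surface fish mean at 5 dpf, as the median log2 difference over the genes of a class that passed the filter with 12 libraries. Genes that rose in surface fish and were flat in Tinaja stood at 1.20, 1.25 and 1.3 in the surface libraries at 7 dpf and at 0.56, 0.70 and 0.25 in the Tinaja libraries at 5 dpf. In Tinaja at 7 dpf they stood at 1.19 in replicate 1 and at 0.46 and 0.40 in replicates 2 and 3. Replicates 2 and 3 lie near their 5 dpf libraries by the choice of the class, which used them, while replicate 1 had no part in it. Its position near the surface fish is still not free of the choice. The class favours genes in which replicates 2 and 3 lay far from the surface fish, and replicate 1 was left out with its effect on the calls known. Genes that fell in surface fish alone stood at -1.59, -1.58 and -1.44 in surface fish at 7 dpf, at -1.27 in Tinaja 7 dpf replicate 1 and at -0.38 and -0.15 in replicates 2 and 3. In the damped genes that rose, replicate 1 stood at 2.58, within the surface range of 2.35 to 2.75, and replicates 2 and 3 at 1.35 and 1.51.

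The Tinaja libraries at 5 dpf were not uniform either. In the reversed genes that fell in surface fish, the level was -0.97 and -1.43 in replicates 1 and 2 at 5 dpf and -0.31 in replicate 3. At 7 dpf it was -1.06 in replicate 1 and 0.03 and 0.18 in replicates 2 and 3. Tinaja 5 dpf replicate 3 was the highest library of its group and Tinaja 7 dpf replicate 1 the lowest of its group, in a class whose choice used the former and not the latter. In the damped classes the 5 dpf libraries were closer, at 0.54, 0.55 and 0.51 for genes that rose.

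**Figure D4:**
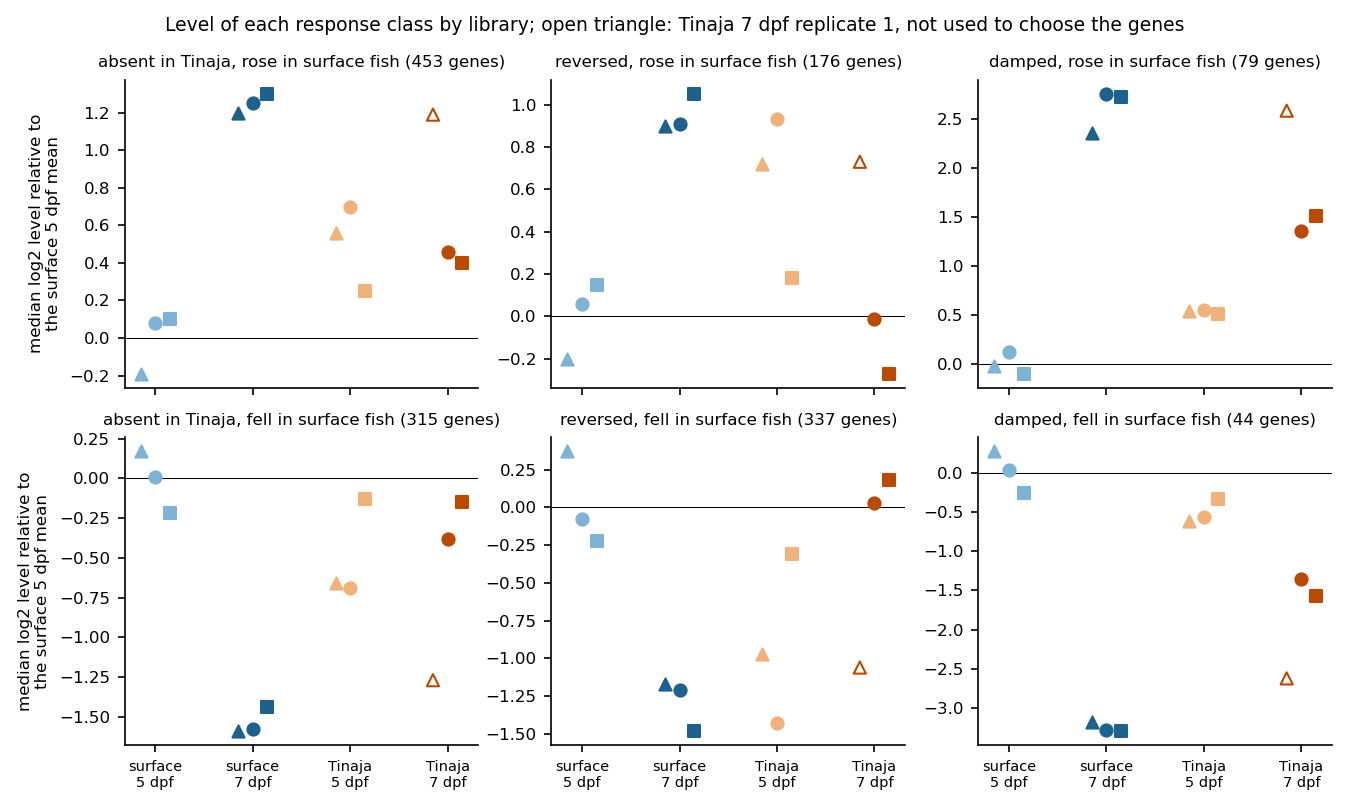
Median log2 level of each response class in every library relative to the surface 5 dpf mean, for classes of the 11-library fit; the open triangle is Tinaja 7 dpf replicate 1, which was not used to choose the genes. Among genes that rose in surface fish alone that library stood at 1.19, beside 1.20 to 1.3 in surface fish at 7 dpf and 0.40 to 0.46 in the other Tinaja libraries of its age.

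The share of reads outside genes and other library measures moved with the same difference. Reads outside genes took 34.3%, 30.5% and 27.2% of reads in surface fish at 5 dpf and 22.7%, 21.3% and 21.0% at 7 dpf. In Tinaja they took 22.2%, 19.9% and 30% at 5 dpf and 23.1%, 25.6% and 27.4% at 7 dpf. The share fell with age in surface fish, while in Tinaja the ages overlapped and replicate 3 at 5 dpf was the highest library. The shares of reads are of all reads of a library, aligned or not. The difference of the age changes was 10.3 percentage points (two-sided exact permutation test of morph labels within each age, 400 relabellings, p = 0.025, adjusted p = 0.05 over 6 measures). Exact means here that all relabellings were used. The relabelling assumes morphs that are alike at each age. With a constant difference between the morphs, its p is only approximate for the difference of the age changes. The share of unaligned reads gave 4.55 points (exact permutation p = 0.025, adjusted p = 0.05) and that of reads in overlapping genes -0.77 points (exact permutation p = 0.01, adjusted p = 0.05). The 100 most abundant genes took 33.5% ± 2.53 and 42.6% ± 2.15 of the counts in surface fish at 5 and 7 dpf and 41.7% ± 4.63 and 41% ± 3.74 in Tinaja (SD, n = 3), a difference of -9.81 points (exact permutation p = 0.06, adjusted p = 0.09). Reads at several places and the number of genes with a read gave an exact permutation p of 0.81 each. With the covariate for reads outside genes the 1484 genes kept a median interaction of 1.33 in place of 2.13 where positive and -0.84 in place of -1.47 where negative, and 191 in place of 521 were reversed. The part of RNA quality or of dissection in the interaction was not tested.

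**Figure D5:**
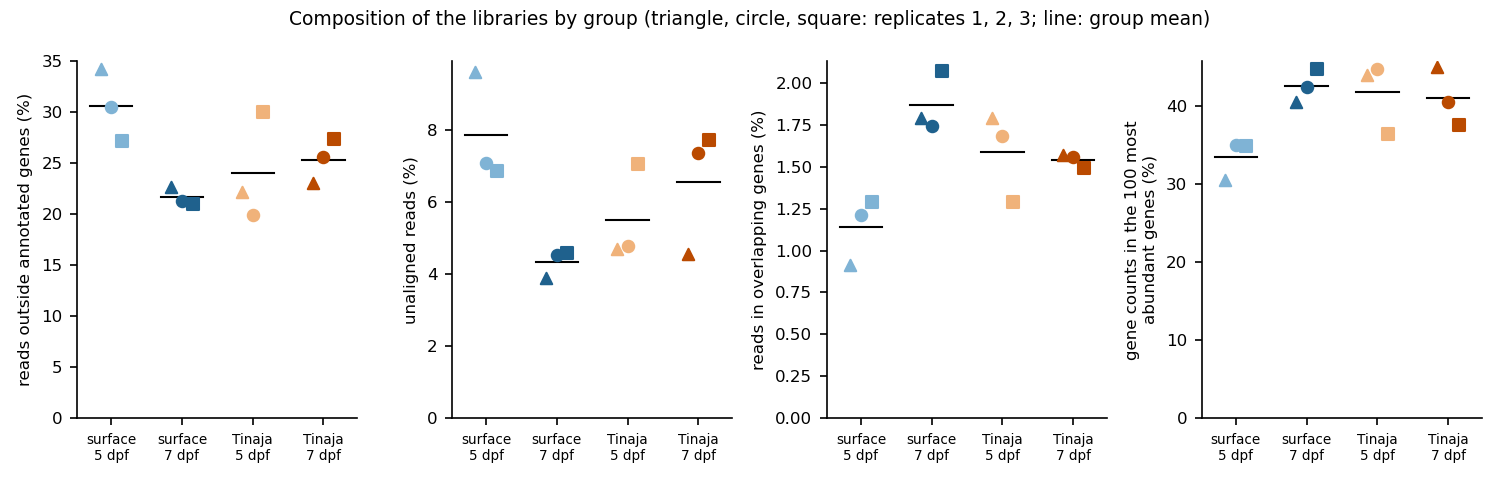
Library measures by group, with 1 point per library, the shape giving the replicate number and a line at the group mean. Reads outside genes, that is, aligned but counted to no gene feature, fell from a mean of 30.7% to 21.7% in surface fish. In Tinaja they stood at 24% and 25.4%.

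The most abundant transcripts of the liver gave the age difference with a leading direction but few calls. Among the 10 most abundant genes the median log2 fold change was 1.07 in surface fish and 0.03 in Tinaja, and the interaction was negative in 10 of 10, between -2.30 and -0.02. Among the 100 most abundant it was negative in 91, with a median of -0.67, whereas the median of all genes was 0.01. With 12 libraries 0 of the 100 passed in edgeR, and 16 stood under an unadjusted p of 0.05, which is the share over all genes (15.8%). With 11 libraries 19 of the 100 passed, all negative, against 8.3% of all genes. The median kept its sign under other scalings and not in every model. Scaled by library totals instead of TMM, all genes together had a median of 0.61, and the 100 stood at -0.12, or -0.74 relative to all genes, with 72 of the 100 negative. With the covariate for reads outside genes the median over the 100 was 0.22 with 12 libraries and -0.15 with 11, where 66 of the 100 were negative, and the median over the 10 most abundant was -0.37 with 12 libraries.

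The size of the age response was also compared between a pair of libraries held out of the choice of genes and the other morph. Genes were called for age in surface fish without surface replicate 1, 2 or 3 in turn. The Tinaja libraries shared that fit and so bore on how many genes passed. The change was read from the left-out pair of surface libraries and from the 3 libraries per age of Tinaja. The 881 to 1278 genes chosen as rising had a median change of 1.07 to 1.31 in the held-out surface pair and of 0.39 to 0.55 in Tinaja, a ratio of 0.36 to 0.42. The 934 to 1361 genes chosen as falling had a median of -1.75 to -1.35 in the held-out pair and of -0.89 to -0.65 in Tinaja, a ratio of 0.39 to 0.59. In the reverse direction, 10 to 281 genes chosen as falling in Tinaja changed by -2.04 to -1.72 in the held-out Tinaja pair and by -2.30 to -1.66 in surface fish, a ratio of 0.91 to 1.17. The 6 to 97 genes chosen as rising in Tinaja gave ratios of 0.49 to 2.14. For genes chosen in surface fish the change was smaller in Tinaja in each of the 3 choices for rising and falling genes. For genes chosen in Tinaja it was not uniformly smaller in surface fish. Choosing genes for a response in 1 morph itself favours a smaller one in the other, and holding out a pair does not remove this. The ratios are therefore no test of a smaller response in Tinaja. Without Tinaja 7 dpf replicate 1 the mean ratio for genes chosen in surface fish dropped from 0.39 to 0.22 for rising and from 0.49 to 0.25 for falling genes. The genes were not the same ones, since 1695 to 2010 rising and 1673 to 2101 falling genes were then chosen. These ratios rest on shared Tinaja libraries and are given as a description.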

How the data were processed

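RNA from 12 pools of 40 larval livers was made into stranded libraries from polyadenylated RNA. The authors deposited whole-number read counts for 27420 gene identifiers of Ensembl release 102 on the astMex_2.0 genome, with 4 summary lines of the form that STAR writes (reads outside genes, in overlapping genes, at several places and unaligned). Reads outside genes are those counted to no gene feature. The summary line does not show whether they lay between genes, in introns or on the other strand. STAR 2.7.3a and RSEM 1.3.0 are named in the submitters' processing notes. The sources used here do not state which strand setting was used for counting, so overlapping genes on opposite strands may have lost or exchanged reads, and paralogues may have lost reads at several places. The summary lines, which held 19.9% to 34.3% (outside genes), 0.914% to 2.07% (overlapping genes), 6.19% to 10.7% (several places) and 3.9% to 9.63% (unaligned) of a library's reads, stayed out of library sizes and tests.

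The deposited counts were tested with edgeR 4.0.16 in R 4.3.3: TMM factors, the tool's own filter on low counts, robust quasi-likelihood dispersions, a mean for each group, 8 residual degrees of freedom (7 with 11 libraries), and Benjamini-Hochberg adjustment over all genes tested, with calls at an adjusted p under 0.1, the false discovery rate that the study's methods give. CPM are on TMM-scaled library sizes. SEs were derived from the F statistics. A response was flat within 0.5 on the log2 scale, damped or larger where both morphs moved in 1 direction, and reversed where they moved in opposite directions. Since libraries are pools, a p-value reflects variation among pools, part of which may be technical. Total counts in genes of 10.6 to 23.6 M per library limit the precision of scarce genes.

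The 8 genes called with 12 libraries are all described. Identifiers are printed for the 2 positive and 2 negative genes with the largest interaction among those whose mean log2 CPM reached 3, and without Tinaja 7 dpf replicate 1 for the 2 positive and 2 negative genes with the smallest p that were not among these. The comparison, the gene rule and the alternatives were chosen with earlier results of these data known, as was the wish to give results without that library. The identifiers matched 0 entries of the RefSeq name table (AstMex3_surface), so metabolic gene lists and cell type markers were not analysed here, and no sequences or positions are given. Alternatives were DESeq2 1.42.0, limma 3.58.1 (voom), other scalings, filters and flat ranges, thinning to the smallest library total, a replicate block, a covariate for reads outside genes, and each library left out in turn. The alternatives on the 11 libraries were added after the data had been seen.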

Additional observations from a re-analysis of the deposited data

Results flagged for a closer look

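The age effect differed between the morphs by the edgeR interaction test, with all 12 libraries, in 8 genes. The log2 fold change from 5 to 7 dpf was higher in Tinaja by 5.80 in a scarce gene, by 4.44 in ENSAMXG00000018625, by 4.15 in ENSAMXG00000036645, by 3.84 in ENSAMXG00000003085, by 3.48 in the damped gene and by 2.83 in the gene that rose more in Tinaja. The interaction was -2.06 in ENSAMXG00000004256 and -2.44 in ENSAMXG00000025171.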

How the results depend on the processing

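The count of genes with a different age response moved with the library set, the test and the threshold. With 12 libraries (8 genes) the count was 15 with no filter beyond 1 read, 835 with DESeq2, 14 with thinned counts, 5 at an adjusted p under 0.05 and 0 with the covariate for reads outside genes, and it lay between 4 and 1484 with each library left out in turn. DESeq2 size factors gave 8, library totals 7 (7 positive and 0 negative) and limma-voom 6. With 11 libraries (1484 genes) it was 3979 with library totals, 900 with no filter beyond 1 read, 3281 with DESeq2, 23 at an adjusted p under 0.05 and 0 with the covariate, and between 4 and 4349 with a further library left out. The cause was not tested. Deviations from the group means did not show a pairing by replicate number and, with 3 libraries per group, could not exclude one. They correlated at -0.28 to 0.41 over 18 pairs of same-numbered libraries (median -0.135). Over 36 pairs with different numbers they correlated at -0.37 to 0.38 (median 0.04). A replicate block left 7 genes past the threshold with 12 libraries, 5 of them among the 8, and 203 with 11.

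The kinds of response follow the range read as flat. At a range of 0.25, of the 8 genes 1 was absent in Tinaja and 2 damped, and for the gap 0 opened, 0 closed, 1 widened and 1 narrowed, while at a range of 1 the gap opened in 2, closed in 3 and crossed in 3. Of the 1484 genes, at 0.25 and 1 respectively, 850 and 162 were reversed, 201 and 42 damped, 6 and 1 larger, and 0 and 335 flat in both morphs. At 0.25, 404 were absent in Tinaja and 23 moved in Tinaja alone, so that reversed was the most frequent kind there. For the gap, 907 and 140 crossed and 0 and 408 were flat at both ages, 273 opened and 117 closed at 0.25, and 53 widened and 13 narrowed at 1.

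With each library left out in turn, the difference of age changes ran from 8.28 to 13.3 points for reads outside genes, from -0.918 to -0.657 for overlapping genes, from 3.67 to 5.54 for unaligned reads and from -12.5 to -8.1 for the 100 most abundant genes, and the exact test lost its call in 5, 1, 4 and 8 of the 12 cases, at an adjusted p under 0.1. For reads outside genes these were surface 5 dpf replicates 1 and 2, Tinaja 5 dpf replicates 1 and 2 and Tinaja 7 dpf replicate 3. For reads at several places it ran from -0.656 to 1.29, and turned negative without surface 5 dpf replicate 2 (-0.656), Tinaja 5 dpf replicate 1 (-0.112), surface 7 dpf replicate 2 (-0.0544) and Tinaja 7 dpf replicate 3 (-0.377). The number of genes with a read ran from -227 to 412, and turned negative without surface 7 dpf replicate 3 (-227) and Tinaja 7 dpf replicate 2 (-120). The held-out ratio of Tinaja to surface change was 0.22 for rising and 0.25 for falling genes without Tinaja 7 dpf replicate 1, where more genes were chosen. With all libraries of Tinaja it ran from 0.36 to 0.42 and from 0.39 to 0.59 over the surface replicate left out. For genes chosen in Tinaja it ran from 0.49 to 2.14 for rising and from 0.91 to 1.17 for falling genes over the replicate left out.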
